A study of Mus musculus with 6 samples.

Results

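Among the genes measured by RNA-seq, 100 protein-coding genes were abundant in the bulk of the mammary tumor cells and lower in every sample of tumor-initiating cells (TICs). Counts were available for 6 samples: 3 of them held TICs and the other 3 held non-CD24+CD90+ tumor cells. Both populations were sorted from mammary tumors of FVB/N-TgN(MMTVPyVT)634Mul/J mice (MMTV-PyMT), in which the MMTV promoter, active in the mammary epithelium, drives the polyoma middle T antigen. TICs were the CD24+CD90+ cells, and all sorted cells were negative for CD45, the pan-leukocyte antigen, and for the dead-cell dye DAPI. The comparison cells fell outside the CD24+CD90+ gate and so lacked CD24, CD90 or both, although the series design text names them as lacking both. The mice were 12 weeks old, and the labels name no treatment. For each sample 4 sorts were pooled, and a library was made from 120 ng of RNA. The authors give a total of 12 mice and do not state whether both groups came from the same animals.

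The genes were chosen by their measured levels in these same 6 samples. Counts were divided by the total of the sample and scaled to a total of 1000000 (CPM). A gene was kept when its mean was at least 50 CPM in non-CD24+CD90+ tumor cells, when all 3 TIC samples lay below all 3 non-CD24+CD90+ samples, and when the TIC mean was at most 0.5 of the other mean. Of 41388 genes with a row, 3703 protein-coding genes reached the mean of 50 CPM. Among them 579 (15.6%) had every TIC sample below every other sample, 132 had a ratio of means at most 0.5, and 100 (2.7%) met both. Every TIC sample was above every other sample in 200 of the 3703 genes (5.4%). Because this contrast picked the genes, their difference between both populations is given as a description and was not tested. The mirror rule, with both populations exchanged, was met by 175 of 3583 genes (4.88%).

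The mammary epithelium is built of luminal cells, which make milk proteins and lipids and hold an apical surface sealed by tight junctions, and of contractile basal cells around them. MMTV-PyMT carcinomas arise from this epithelium and grow among fibroblasts, vessels and fat. CD24 is a surface glycoprotein of epithelial and other cells, and CD90 (Thy1) is carried by many mesenchymal cells and by some basal epithelial cells.

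The non-CD24+CD90+ libraries held 6781239 to 8450038 counts and the TIC libraries 8114933 to 9100552, so that 3 counts corresponded to 0.33 to 0.44 CPM. None of the 100 genes was near this floor, since their lowest count was 217 in a non-CD24+CD90+ sample and 22 in a TIC sample. TIC replicate 3 stood apart, with 5.01% of its counts in mitochondrial genes (1.93% to 3.52% in the other 5 samples) and 25.3% in its 50 most abundant genes (17.6% to 22.2% in the others). The mRNAs of the sorting markers did not separate the groups: Cd24a was at 394 to 621 CPM in non-CD24+CD90+ tumor cells and 313 to 439.6 CPM in TICs, and Thy1 at 22.3 to 74.4 and 65.7 to 205 CPM. The pan-leukocyte gene Ptprc had no count in 5 samples and 4.72 CPM in the remaining one. The epithelial marker Epcam was abundant in both populations, at 1370 to 1605 CPM against 1042 to 1254 CPM.

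The 100 genes covered a range of levels and of differences. Their mean in non-CD24+CD90+ tumor cells ran from 50.3 CPM (Tmem135) to 454 CPM (Rassf3), with a median of 84.8 CPM, and their mean in TICs from 12.1 CPM (Lrrc40) to 221 CPM (Rassf3), with a median of 35.4 CPM. The ratio of the TIC mean to the other mean ran from 0.195 (Ap4b1) to 0.4996 (Plekha6), with a median of 0.439. Only 9 genes had a ratio at or below 0.33, and 43 lay above 0.45. Just inside the limit on the ratio were Adrb1 (0.498), Abhd17c (0.498) and Plekha6 (0.4996), and just outside were Golt1b (0.502), Aqp5 (0.502) and Snx4 (0.505). Just inside the limit on the mean were Tmem135 (50.3 CPM), Lrrc40 (50.7 CPM) and Terf2 (51.9 CPM), and just outside were Tom1l2 (49.7 CPM), Spryd3 (49.7 CPM) and Ube2q2 (49.3 CPM). The share of abundant genes that met the rule was smaller at higher levels, with 67 of 1691 genes (3.96%) between 50 and 100 CPM, 26 of 1116 (2.33%) between 100 and 200 CPM, 7 of 649 (1.08%) between 200 and 500 CPM, and 0 of 247 above 500 CPM. Over the same steps the share of genes with every TIC sample below went the other way, from 10.9% to 28.7%.

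**Figure D1:**
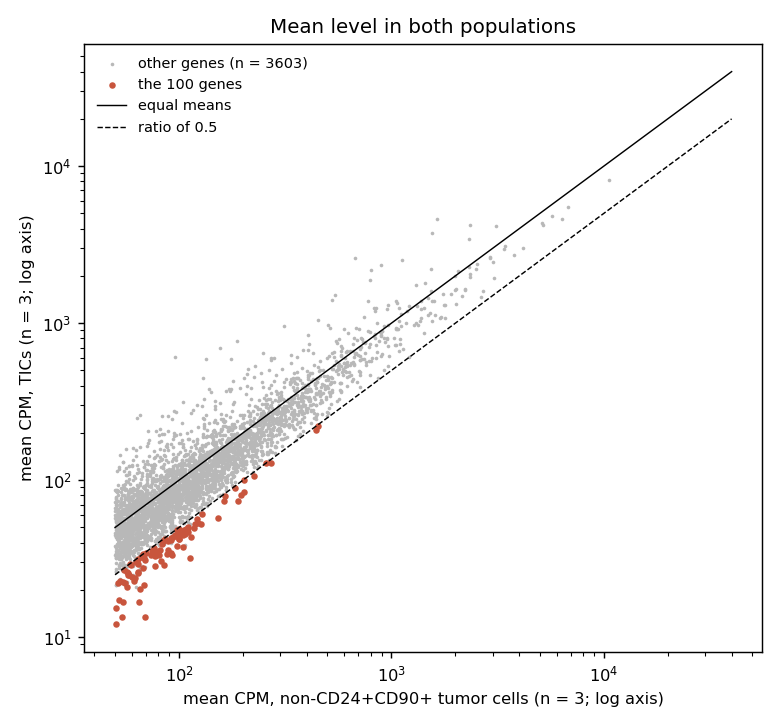
Each point is a protein-coding gene with a mean of at least 50 CPM in non-CD24+CD90+ tumor cells (x axis, CPM, log scale, mean of 3 samples) plotted against its mean in TICs (y axis, CPM, log scale, mean of 3 samples). The 100 genes (red) lie on or below the dashed line at a ratio of 0.5 and none has a mean above 454 CPM, while the other 3603 genes (grey) lie on both sides of the line of equal means, 32 of them also at a ratio of at most 0.5 but with overlapping groups.

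Summed over the 100 genes, the level was 9960, 10227 and 10369 CPM in the non-CD24+CD90+ samples and 4746, 4561 and 3971 CPM in the TIC samples. Relative to each gene's mean in non-CD24+CD90+ tumor cells, the median gene stood at 0.455 in TIC replicate 1, 0.443 in TIC replicate 2 and 0.351 in TIC replicate 3. The median of all 3703 abundant genes was also below 1, at 0.892, 0.875 and 0.804 in the same order. TIC replicate 3 was the lowest TIC sample for 53 of the 100 genes, against 42.3% of the abundant genes. Without this sample 120 genes met the rule, 69 of the 100 among them, and with all samples scaled by TMM factors 78 genes met it, all of them among the 100. In 22 genes all 3 TIC samples were at or below 0.5 of the mean in non-CD24+CD90+ tumor cells, in 64 genes 2 samples were, and in 14 genes 1 sample was. The gap between the groups was often narrow. In 13 genes the highest TIC sample came within 10% of the lowest non-CD24+CD90+ sample, and in 4 genes (Sox5, Prom1, Lrrc40 and Fgfr2) it was at most 0.5 of it. The spread within TICs was wider, with a median coefficient of variation of 35.9% in TICs and 20.99% in non-CD24+CD90+ tumor cells, and it was larger in TICs for 78 of the 100 genes. Among the abundant genes the medians were 26.5% and 20.3%, with a larger value in TICs for 63.8%.

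**Figure D2:**
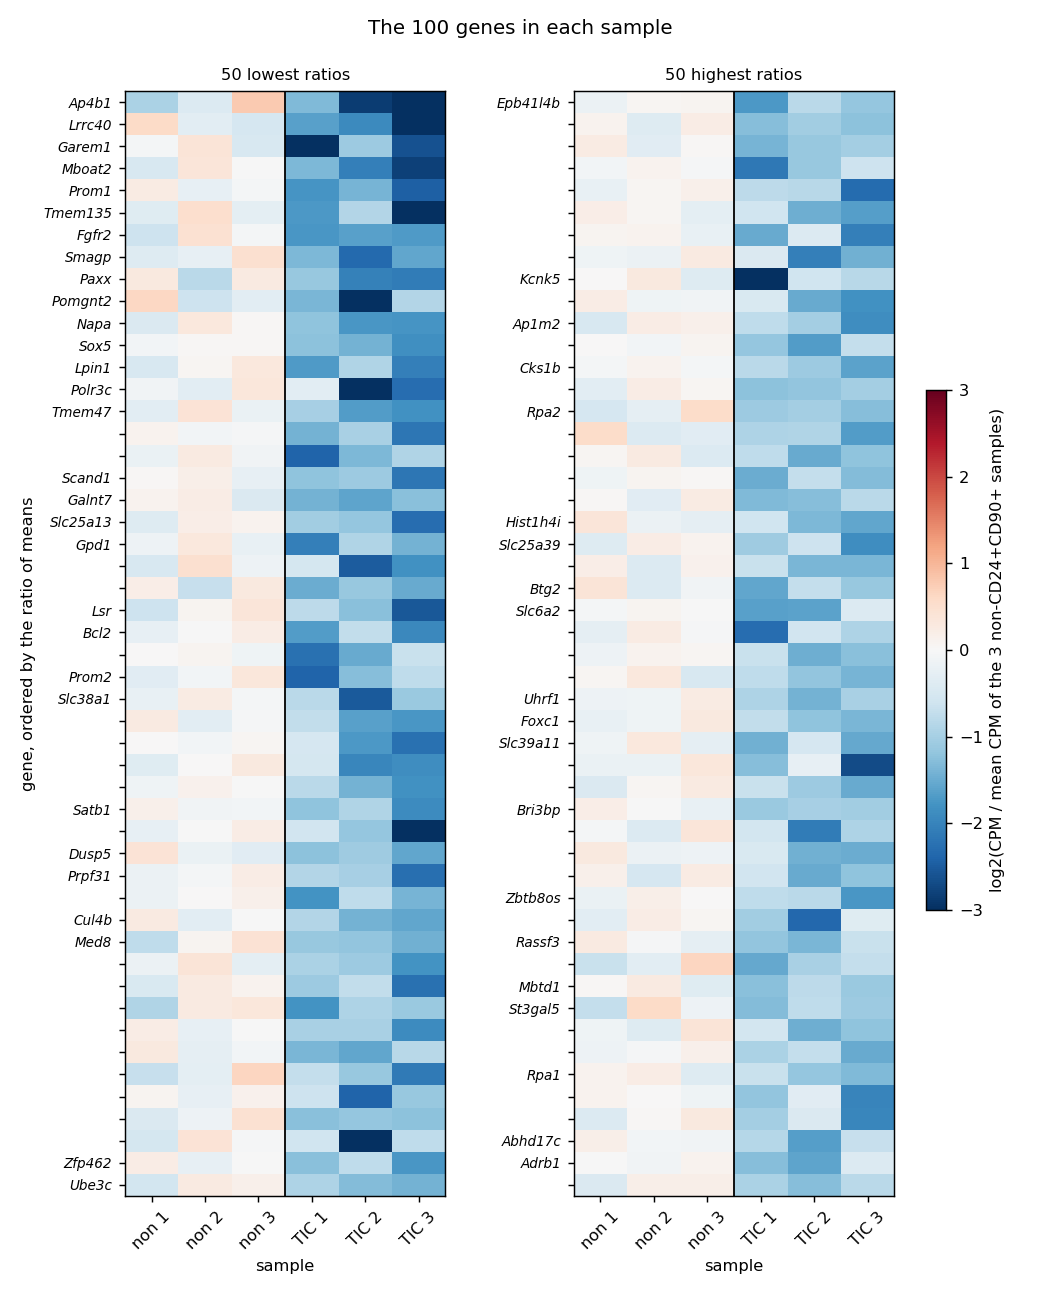
Heat map of the 100 genes (rows, ordered by the ratio of means from the top left to the bottom right, with names for the genes whose values in every sample are given or that belong to a function list) in 3 samples of non-CD24+CD90+ tumor cells and 3 of TICs (columns). Color gives log2 of the CPM over the gene's mean in non-CD24+CD90+ tumor cells and saturates at 3 in either direction. All fields of TIC samples are blue, with the darkest ones scattered over the 3 TIC samples rather than held by 1 of them.

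**Figure D3:**
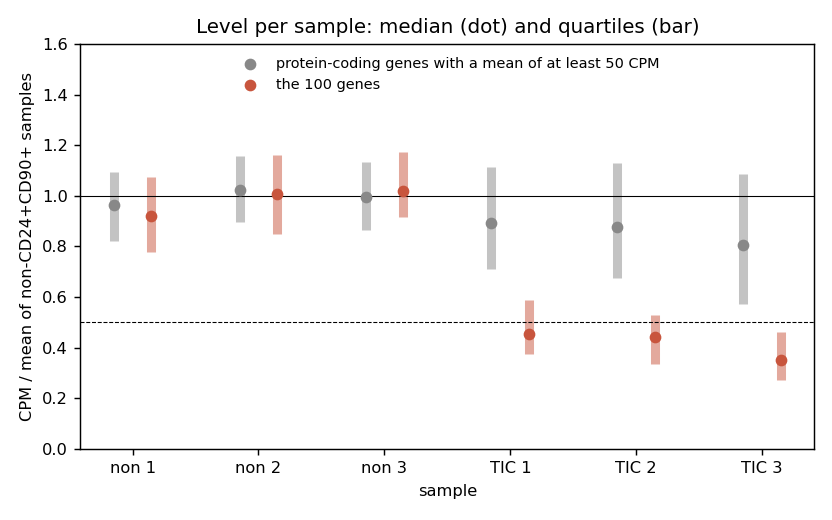
Level per sample relative to the mean of the 3 non-CD24+CD90+ samples (y axis, ratio of CPM), as the median (dot) and quartiles (bar) over the 100 genes (red) and over 3703 abundant protein-coding genes (grey). The red medians lie at 0.919 to 1.02 in non-CD24+CD90+ samples and at 0.351 to 0.455 in TIC samples, while the grey medians lie between 0.804 and 1.02.

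In the comparison across all 12192 expressed genes (edgeR's exactTest, adjusted p-value below 0.1), 23 genes were lower in TICs (0.189%) and 166 were higher (1.36%). Of the 100 genes, 12 were among the 23: Uhrf1, Satb1, Dusp5, Bcl2, Scand1, Gpd1, Prom1, Lpin1, Sox5, Galnt7, Napa and Mboat2. In all, 92 of them had an unadjusted p-value below 0.05. Over all 12192 genes, 379 were lower (3.11%) and 578 higher (4.74%) at that unadjusted threshold. Nothing is read from these counts, because the rule used the same contrast. The quasi-likelihood test of edgeR called 1 of the 100 genes, Prom1, and DESeq2 called 17.

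The promoters of several related genes are shown because these genes were picked together: both prominins, 2 subunits of replication protein A, and 2 enzymes of glycerolipid synthesis. Each sequence holds the 250 bases before the transcription start in RefSeq on GRCm38.p6, read 5′ to 3′ on the strand of the gene, and capitals mark matches on either strand to the motifs listed after them.
Prom1 (chr5:44101737-44101986, minus strand): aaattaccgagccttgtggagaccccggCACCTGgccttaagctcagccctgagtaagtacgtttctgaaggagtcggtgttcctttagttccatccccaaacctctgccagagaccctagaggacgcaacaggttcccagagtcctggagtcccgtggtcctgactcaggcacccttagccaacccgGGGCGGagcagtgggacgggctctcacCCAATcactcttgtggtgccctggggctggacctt
Prom2 (chr2:127541418-127541667, minus strand): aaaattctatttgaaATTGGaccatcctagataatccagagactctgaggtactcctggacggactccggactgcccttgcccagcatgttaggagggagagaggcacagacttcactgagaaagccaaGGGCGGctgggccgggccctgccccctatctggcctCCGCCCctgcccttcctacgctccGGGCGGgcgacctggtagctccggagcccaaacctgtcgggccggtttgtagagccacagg
Rpa1 (chr11:75348384-75348633, minus strand): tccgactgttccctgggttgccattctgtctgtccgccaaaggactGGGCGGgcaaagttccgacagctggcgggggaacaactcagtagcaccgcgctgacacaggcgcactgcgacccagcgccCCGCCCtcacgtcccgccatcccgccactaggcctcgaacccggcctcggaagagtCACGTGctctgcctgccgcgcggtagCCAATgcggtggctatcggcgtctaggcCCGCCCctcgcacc
Rpa2 (chr4:132768110-132768359, plus strand): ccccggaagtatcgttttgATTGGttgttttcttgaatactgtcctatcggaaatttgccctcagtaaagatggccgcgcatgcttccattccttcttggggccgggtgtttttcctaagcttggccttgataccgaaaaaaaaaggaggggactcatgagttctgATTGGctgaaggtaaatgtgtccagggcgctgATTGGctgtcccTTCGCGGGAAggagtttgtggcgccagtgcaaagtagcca
Lpin1 (chr12:16610967-16611216, minus strand): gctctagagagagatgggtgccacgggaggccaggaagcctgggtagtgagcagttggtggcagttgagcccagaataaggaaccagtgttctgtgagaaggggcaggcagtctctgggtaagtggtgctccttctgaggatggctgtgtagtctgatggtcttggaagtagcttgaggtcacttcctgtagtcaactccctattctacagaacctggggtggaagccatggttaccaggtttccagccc
Mboat2 (chr12:24831349-24831598, plus strand): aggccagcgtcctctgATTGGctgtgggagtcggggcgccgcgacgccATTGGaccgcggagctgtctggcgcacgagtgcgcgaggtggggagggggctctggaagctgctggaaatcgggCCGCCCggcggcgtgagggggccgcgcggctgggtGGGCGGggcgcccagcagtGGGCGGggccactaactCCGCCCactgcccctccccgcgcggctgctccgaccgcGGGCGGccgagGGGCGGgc

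The motifs searched were the TATA box with the letters TATAAA, the CCAAT box, the GC box GGGCGG, the general E-box CACGTG, the E-box bound by Snail and Zeb factors, CACCTG, and the grainyhead-like motif AACCGGTT. A Stat5 motif, in which 3 free bases separate TTCC from GAA, and the E2F motifs TTTGGCGC and TTTCGCGC were searched as well. None of the 9 motifs contains another, and a match of letters is no evidence of binding. In the shown stretch, CCAAT stood 35 bases before the start of Prom1 and 235 bases before that of Prom2. In Rpa2 it occurred 3 times, 231, 84 and 52 bases before the start, and in Rpa1 once, 42 bases before it. Mboat2 held 6 GC boxes and 2 CCAAT letters, whereas the Lpin1 stretch held none of the motifs. Windows of 300 bases also included the first 50 transcribed bases. A RefSeq sequence, matched by Ensembl identifier or else by symbol, was found for 83 of the 100 genes. CCAAT was found in 47.0% of them, in 37.1% of the matched abundant genes and in 37.9% of all promoters. GGGCGG was found in 72.3%, 69.5% and 35.9%, and CACGTG in 15.7%, 11.1% and 7.24%. CACCTG occurred in 18.1%, 15.5% and 20.03%, the Stat5 motif in 4.82%, 3.46% and 3.93%, and TATAAA in 3.61%, 7.30% and 14.2%. AACCGGTT was in none of the 83 windows, in 0.24% of the abundant genes and in 0.15% of all promoters, and TTTGGCGC in none of the 83, 0.75% and 0.54%. TTTCGCGC was in 1.20%, 0.54% and 0.32%. The median GC content of the windows was 63.7%, 62.3% and 52.7%.

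The function lists used next hold genes of 1 process each and were written with earlier results of these data known. Of the 100 genes, 30 belonged to at least 1 of the 28 lists and 70 to none. Values are given as CPM in replicates 1 to 3 of non-CD24+CD90+ tumor cells and then of TICs, and means as mean ± SD (n = 3). The rule fixes that the groups do not overlap, so for each gene the position of the single samples is what differs. CPM is not corrected for gene length, and levels are compared between genes only where CPM per kilobase of exon is named.

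Lipid synthesis held 3 of the genes, and all 3 act on glycerolipids. Gpd1, the cytosolic glycerol-3-phosphate dehydrogenase that makes the glycerol backbone, was at 102, 142 and 98.1 CPM in the non-CD24+CD90+ samples and 27.6, 60.5 and 42.3 CPM in the TIC samples, a mean of 114 ± 24.2 against 43.5 ± 16.5 CPM (2.62-fold lower). Lpin1, the phosphatidate phosphatase that yields diacylglycerol, was at 74.5, 109 and 130.2 CPM in the non-CD24+CD90+ samples and 32.1, 55.7 and 25.1 CPM in the TIC samples, a mean of 105 ± 28.1 against 37.6 ± 16 CPM (2.78-fold lower). Mboat2, a lysophospholipid acyltransferase, was at 46.4, 83.9 and 64.3 CPM in the non-CD24+CD90+ samples and 25.6, 15.7 and 9.24 CPM in the TIC samples, a mean of 64.9 ± 18.8 against 16.9 ± 8.24 CPM (3.85-fold lower). TIC replicate 2 was the highest TIC sample for Gpd1 and Lpin1, and TIC replicate 1 for Mboat2. Of 41 lipid genes tested, 4 were called lower and 0 higher by exactTest (5 and 0 at an unadjusted p-value below 0.05), and the median log2 difference was -0.30, against -0.01 over all expressed genes. The fourth was Pank1, a pantothenate kinase of coenzyme A synthesis (log2 difference -3.03, SE 0.86, exactTest adjusted p = 0.0922). Pank1 was at 28.8 ± 7.89 against 3.33 ± 1.14 CPM, below the level the rule asked for. Nothing is read from the calls of Gpd1, Lpin1 and Mboat2, because the rule used the same contrast. Of the 21 abundant list genes, 5 had every TIC sample below and 0 above, beside 15.6% and 5.4% of all abundant genes. Those that did not meet the rule were Plin3 (ratio 0.664) and Me1 (0.641). The remaining abundant list genes had overlapping groups, with ratios from 0.448 (Lpcat3) to 1.27 (Plin2). None of the 17 cholesterol synthesis genes tested was called in either direction by exactTest, the quasi-likelihood test or DESeq2, and 0 had an unadjusted p-value below 0.05 in exactTest. The summed level of 10 adipocyte markers was 72.4 to 146 CPM in non-CD24+CD90+ tumor cells and 194 to 1148 CPM in TICs. That difference was in 1 gene, Fabp4, the only one of the 10 that was higher in every TIC sample. Adipoq, Plin1, Lep and Retn had no count in any sample, and the other 5 markers were each at most 14.01 CPM. The part of fat cells in the lipid genes was not tested.

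Apical polarity and junctions held both prominins and Lsr. Prom1 (CD133), a pentaspan membrane protein of apical protrusions, was at 134, 95.03 and 108 CPM in the non-CD24+CD90+ samples and 32.97, 42.5 and 20.5 CPM in the TIC samples, a mean of 112 ± 19.6 against 31.97 ± 11.04 CPM (3.51-fold lower). Even the highest TIC sample was at 0.447 of the lowest other sample. Its paralog Prom2 was at 44.1, 52.5 and 70.8 CPM in the non-CD24+CD90+ samples and 10.5, 23.1 and 33.1 CPM in the TIC samples, a mean of 55.8 ± 13.7 against 22.3 ± 11.3 CPM (2.5-fold lower), and its TIC samples were ordered differently, with replicate 1 lowest. Lsr, which recruits proteins to tricellular junctions, was at 62.9, 104 and 126 CPM in the non-CD24+CD90+ samples and 56.7, 40.7 and 16.6 CPM in the TIC samples, a mean of 97.5 ± 31.9 against 38.03 ± 20.2 CPM (2.57-fold lower). The groups nearly met for Lsr, where the highest TIC sample reached 0.901 of the lowest other sample. Of 38 genes of the list, Prom1 was the only one called by exactTest (6 lower and 1 higher at an unadjusted p-value below 0.05), and the median log2 difference was -0.36. Of the 20 that were abundant, 7 had every TIC sample below every other sample (15.6% of all abundant genes did) and 0 above (5.4%), and those outside the 100 genes included Mpp5 (ratio 0.537), Cgnl1 (0.581) and F11r (0.838).

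DNA replication and cell cycle held 4 of the genes. Uhrf1, which brings the maintenance methyltransferase to newly replicated DNA, was at 202, 207 and 271 CPM in the non-CD24+CD90+ samples and 119, 85.2 and 115 CPM in the TIC samples, a mean of 227 ± 38.3 against 107 ± 18.7 CPM (2.12-fold lower). Rpa1 and Rpa2 encode subunits of the complex that covers single-stranded DNA. Rpa1 was at 92.1, 99.9 and 65.6 CPM in the non-CD24+CD90+ samples and 54.1, 38.5 and 34.1 CPM in the TIC samples, a mean of 85.9 ± 17.96 against 42.2 ± 10.5 CPM (2.03-fold lower). Rpa2 was at 63.9, 75.4 and 134 CPM in the non-CD24+CD90+ samples and 42.6, 44.9 and 37.6 CPM in the TIC samples, a mean of 91.3 ± 37.9 against 41.7 ± 3.75 CPM (2.19-fold lower), with 1 high non-CD24+CD90+ sample and closely spaced TIC samples. Cks1b, a small subunit of cyclin-dependent kinases, was at 55.1, 61.3 and 55.2 CPM in the non-CD24+CD90+ samples and 32.5, 26.97 and 18.7 CPM in the TIC samples, a mean of 57.2 ± 3.57 against 26.1 ± 6.94 CPM (2.19-fold lower). These 4 genes did not stand for the list. Of 79 genes tested, 1 was called lower (Uhrf1) and 1 higher, the cyclin Ccnd2 (log2 difference 1.35, SE 0.41, exactTest adjusted p = 0.0878). Ccnd2 was at 58.2, 81.4 and 74.8 CPM in the non-CD24+CD90+ samples and 75.2, 209 and 234 CPM in the TIC samples, so its groups overlapped. The quasi-likelihood test called 0 genes of the list in either direction. Of the 21 abundant list genes, 6 had every TIC sample below and 1 above, beside 15.6% and 5.4% of all abundant genes. Those outside the 100 genes were Birc5 (ratio 0.536) and Lig1 (0.653) below and Top2a (1.69) above.

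In the list of luminal and other epithelial transcription factors, Satb1 and Sox5 met the rule. Satb1, a factor that organizes chromatin loops, was at 227, 189 and 192 CPM in the non-CD24+CD90+ samples and 87.6, 109 and 54.7 CPM in the TIC samples, a mean of 203 ± 20.9 against 83.6 ± 27.1 CPM (2.42-fold lower). Sox5, an SRY-box factor, was at 88.3, 96.1 and 95.1 CPM in the non-CD24+CD90+ samples and 39.4, 34.8 and 25.9 CPM in the TIC samples, a mean of 93.2 ± 4.26 against 33.4 ± 6.90 CPM (2.79-fold lower). It had the widest relative gap of the 100 genes, with the highest TIC sample at 0.447 of the lowest other sample. Of 47 list genes tested, 2 were called lower, both of them these, and 0 higher (4 and 2 at an unadjusted p-value below 0.05), with a median log2 difference of -0.36. Of the 31 that were abundant, 8 had every TIC sample below and 0 above, beside 15.6% and 5.4% of all abundant genes. The 6 outside the 100 genes were Tfap2c (0.528), Trps1 (0.552), Tfap2b (0.655), Irx2 (0.676), Ehf (0.715) and Nfib (0.718).

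Solute carriers, the membrane transporters, held 5 of the genes. Slc39a11, a zinc transporter, was at 249.9, 339.8 and 224 CPM in the non-CD24+CD90+ samples and 99.4, 192 and 93.04 CPM in the TIC samples, a mean of 271 ± 60.9 against 128 ± 55.7 CPM (2.11-fold lower). The mitochondrial carrier Slc25a39 was at 72.96, 111 and 103 CPM in the non-CD24+CD90+ samples and 45.4, 62.04 and 26.2 CPM in the TIC samples, a mean of 95.6 ± 20.02 against 44.6 ± 17.9 CPM (2.15-fold lower). The mitochondrial aspartate-glutamate carrier Slc25a13 was at 68.7, 104 and 97.3 CPM in the non-CD24+CD90+ samples and 43.6, 40.4 and 18.6 CPM in the TIC samples, a mean of 89.97 ± 18.7 against 34.2 ± 13.6 CPM (2.63-fold lower). For these 3 genes TIC replicate 3 was the lowest TIC sample. Slc38a1, a glutamine transporter, was at 76.8, 105 and 85.7 CPM in the non-CD24+CD90+ samples and 50.8, 15.6 and 40.9 CPM in the TIC samples, a mean of 89.1 ± 14.3 against 35.8 ± 18.1 CPM (2.49-fold lower), with TIC replicate 2 lowest. The norepinephrine transporter Slc6a2 had means of 76.2 ± 3.45 against 35.7 ± 18.5 CPM, and without TIC replicate 3, its highest TIC sample, the log2 ratio moved from -1.09 to -1.61. Of 201 solute carriers tested, 1 was called lower, Slc29a4, which had no count in TICs and only 8.99 ± 4.93 CPM in the other cells, and 0 were called higher (11 lower and 2 higher at an unadjusted p-value below 0.05). Of the 55 that were abundant, 16 had every TIC sample below and 1 above, beside the same 15.6% and 5.4%.

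**Figure D4:**
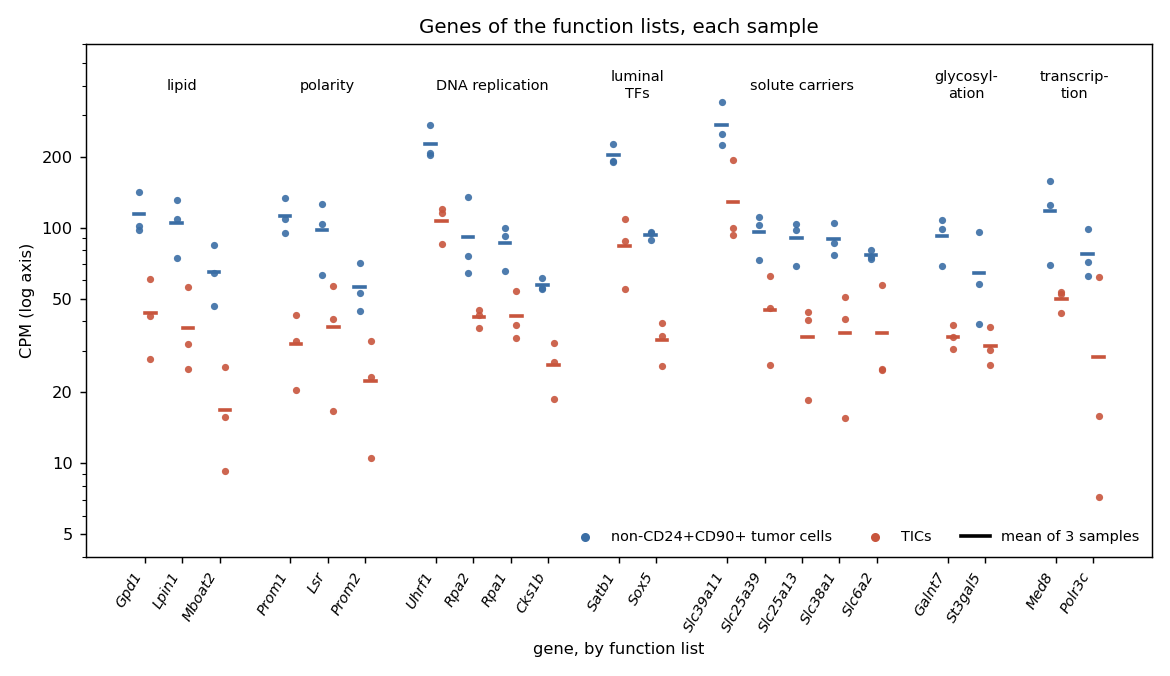
CPM (y axis, log scale) in each of 3 samples of non-CD24+CD90+ tumor cells (blue) and TICs (red) for the genes of 7 function lists (x axis), with bars at the group means. The groups are separate for every gene shown, with the widest relative gaps in Prom1 and Sox5 and the narrowest in Polr3c and St3gal5.

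Glycosylation enzymes of the Golgi held Galnt7, an enzyme of mucin-type O-glycan synthesis, and St3gal5, the synthase of ganglioside GM3. Galnt7 was at 98.9, 108 and 68.4 CPM in the non-CD24+CD90+ samples and 34.2, 30.6 and 38.7 CPM in the TIC samples, a mean of 91.7 ± 20.6 against 34.5 ± 4.08 CPM (2.66-fold lower). St3gal5 was at 38.9, 95.6 and 57.8 CPM in the non-CD24+CD90+ samples and 26.04, 37.96 and 30.2 CPM in the TIC samples, a mean of 64.1 ± 28.9 against 31.4 ± 6.05 CPM (2.04-fold lower), and its highest TIC sample lay at 0.976 of its lowest other sample. Of 55 list genes tested, 1 was called lower and 0 higher (3 and 0 at an unadjusted p-value below 0.05), and the median log2 difference was 0.10.

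General transcription held Med8, a Mediator subunit, and Polr3c, a subunit of RNA polymerase III. Med8 was at 69.7, 125 and 158 CPM in the non-CD24+CD90+ samples and 53.5, 52.1 and 43.5 CPM in the TIC samples, a mean of 117 ± 44.6 against 49.7 ± 5.42 CPM (2.36-fold lower). Polr3c was at 71.4, 62.1 and 98.7 CPM in the non-CD24+CD90+ samples and 61.97, 7.18 and 15.9 CPM in the TIC samples, a mean of 77.4 ± 18.99 against 28.3 ± 29.4 CPM (2.73-fold lower). In Polr3c the groups all but touched, since TIC replicate 1 lay at 0.998 of the lowest other sample, and without it the log2 ratio was -2.75 in place of -1.45. Of 92 list genes tested, 0 were called lower by exactTest, the quasi-likelihood test or DESeq2 (4 at an unadjusted p-value below 0.05 in exactTest). Called higher were 1 gene by exactTest, 0 by the quasi-likelihood test and 2 by DESeq2 (3 at an unadjusted p-value below 0.05 in exactTest). The 1 gene of exactTest was Med6, at 0 CPM in non-CD24+CD90+ tumor cells and only 8.73 ± 7.08 CPM in TICs.

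The list matched by zinc finger and SCAN names held 3 of the genes. Scand1, a small SCAN-domain protein, was at 157, 173 and 128 CPM in the non-CD24+CD90+ samples and 66.1, 72.1 and 33.8 CPM in the TIC samples, a mean of 153 ± 22.5 against 57.3 ± 20.6 CPM (2.67-fold lower). Zfp462 was at 91.6, 66.9 and 77.6 CPM in the non-CD24+CD90+ samples and 32.9, 46.3 and 23.4 CPM in the TIC samples, a mean of 78.7 ± 12.4 against 34.2 ± 11.5 CPM (2.3-fold lower). Zbtb8os was at 73.2, 95.6 and 84.6 CPM in the non-CD24+CD90+ samples and 50.1, 48.1 and 25.02 CPM in the TIC samples, a mean of 84.5 ± 11.2 against 41.1 ± 13.96 CPM (2.06-fold lower). Zbtb8os encodes archease, a partner of the tRNA ligase complex, and no zinc finger protein. It lies opposite Zbtb8a, whose name it carries and which was at 4.33 and 6.36 CPM in the group means. Per kilobase of exon, Scand1 had the highest level of the 100 genes in non-CD24+CD90+ tumor cells, at 201 CPM per kilobase, and Slc38a1 the lowest, at 5.17. Of 299 list genes tested, 1 was called lower and 2 higher.

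A further 6 lists held 1 of the genes each. Dusp5, a nuclear phosphatase that inactivates ERK, was at 259.5, 171 and 155 CPM in the non-CD24+CD90+ samples and 83.5, 93.6 and 66.2 CPM in the TIC samples, a mean of 195 ± 56.4 against 81.1 ± 13.9 CPM (2.4-fold lower). All 3 TIC samples of Dusp5 were under 0.5 of the other mean. Bcl2, which blocks apoptosis at the mitochondrion, was at 159.7, 187 and 220.2 CPM in the non-CD24+CD90+ samples and 59.1, 114 and 49.8 CPM in the TIC samples, a mean of 189 ± 30.3 against 74.3 ± 34.6 CPM (2.54-fold lower), with TIC replicate 2 well above the other TIC samples. Fgfr2, an epithelial receptor of fibroblast growth factors, was at 35.6, 75.03 and 52.5 CPM in the non-CD24+CD90+ samples and 16.2, 17.7 and 16.6 CPM in the TIC samples, a mean of 54.4 ± 19.8 against 16.8 ± 0.796 CPM (3.23-fold lower). The TIC samples of Fgfr2 differed by less than 2 CPM. Napa, the SNARE-recycling protein alpha-SNAP, was at 62.7, 106 and 86.6 CPM in the non-CD24+CD90+ samples and 36.7, 25.3 and 25.02 CPM in the TIC samples, a mean of 85.05 ± 21.7 against 29.02 ± 6.65 CPM (2.93-fold lower). The remaining ones were the ubiquitin ligase scaffold Cul4b, with means of 100.1 ± 20.2 against 42.2 ± 11.1 CPM, and the potassium channel Kcnk5, with 73.8 ± 17.3 against 33.2 ± 21 CPM. In the ERK feedback list, Etv5 (ratio 0.507), Dusp6 (0.628) and Phlda1 (0.638) were also below in every TIC sample, and none of them was called by exactTest. Together with Dusp5 they were 4 of the 9 abundant genes of that list, beside 15.6% of all abundant genes. None of the 9 was above in every TIC sample (5.4% of all abundant genes). Of the genes tested in these lists, 1 of 17 was called lower in ERK feedback (Dusp5), 1 of 32 in apoptosis (Bcl2) and 1 of 92 in vesicle traffic (Napa). In channels and pumps, 1 of 84 was called lower and 3 higher. The lower one was Aqp5, which is outside the 100 genes, and Kcnk5 was not called. In receptor tyrosine kinase signaling 0 of 27 were called in either direction by exactTest, the quasi-likelihood test or DESeq2 (1 lower and 1 higher at an unadjusted p-value below 0.05 in exactTest). In ubiquitin conjugation 0 of 223 were called lower by exactTest (6 at an unadjusted p-value below 0.05) and 1 by DESeq2, and 1 was called higher by exactTest, Usp16 (5 at an unadjusted p-value below 0.05).

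The other 14 lists held none of the 100 genes. Over all abundant genes, 15.6% had every TIC sample below every other sample. In these lists the count was 7 of 43 abundant genes for cytosolic ribosomal proteins, 8 of 43 for translation factors, 5 of 43 for the mitochondrial ribosome and import, 2 of 59 for the respiratory chain, 3 of 23 for the tricarboxylic acid cycle and 2 of 11 for glycolysis. It was 6 of 14 for epithelial splicing and RNA binding, 2 of 5 for epithelial keratins, 3 of 13 for adherens junctions and desmosomes, 5 of 22 for detoxification and 2 of 20 for milk products. None was among the 6 abundant genes of cholesterol synthesis, the 8 of prolactin and steroid hormone response and the 2 of gap junctions. Every TIC sample was above in 2 of 43 for the mitochondrial ribosome and import and 1 of 22 for detoxification. For milk products it was 1 of 20 and for gap junctions 1 of 2, and the other lists had 0 (5.4% of all abundant genes). ExactTest called 1 gene lower and 2 higher in gap junctions, and 1 in each direction in detoxification. It called 1 lower and 0 higher in milk products, translation factors and epithelial splicing each, and 0 in the other lists. The median log2 difference over the genes tested ran from -0.44 (keratins) to 0.18 (prolactin and steroid hormone response), and it was above 0 in 4 of the 14 lists, which also included gap junctions (0.11), milk products (0.10) and cholesterol synthesis (0.02).

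The other genes with the highest levels in CPM belonged to no list. Rassf3, of the Ras association domain family, was at 545, 439 and 377 CPM in the non-CD24+CD90+ samples and 200.4, 176 and 287 CPM in the TIC samples, a mean of 454 ± 84.99 against 221 ± 58.5 CPM (2.05-fold lower). Btg2, an antiproliferative gene, was at 582, 333 and 414 CPM in the non-CD24+CD90+ samples and 149.7, 272 and 201 CPM in the TIC samples, a mean of 443 ± 127 against 208 ± 61.5 CPM (2.13-fold lower). Abhd17c, a depalmitoylating enzyme, was at 291, 241 and 238 CPM in the non-CD24+CD90+ samples and 142, 81.7 and 160.1 CPM in the TIC samples, a mean of 257 ± 29.8 against 128 ± 41.1 CPM (2.01-fold lower). The TIC sample nearest to the other group was replicate 3 for Rassf3 and Abhd17c and replicate 2 for Btg2, so that no single sample was high throughout. Adrb1, the beta-1 adrenergic receptor, was at 201, 189 and 215 CPM in the non-CD24+CD90+ samples and 83.6, 66.9 and 151 CPM in the TIC samples, a mean of 202 ± 13.5 against 100.5 ± 44.5 CPM (2.01-fold lower). Mbtd1, a chromatin reader, was at 187, 219 and 142 CPM in the non-CD24+CD90+ samples and 77.03, 106 and 84.04 CPM in the TIC samples, a mean of 183 ± 38.5 against 89.2 ± 15.4 CPM (2.05-fold lower). Bri3bp was at 189, 163 and 141 CPM in the non-CD24+CD90+ samples and 76.1, 81.9 and 79.7 CPM in the TIC samples, a mean of 164 ± 24.2 against 79.3 ± 2.93 CPM (2.07-fold lower). Bri3bp had a small SD in TICs, while Adrb1 had a small SD in the other cells and a wide one in TICs.

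Ap1m2, the epithelial subunit of the clathrin adaptor that sorts proteins to the basolateral membrane, was at 118, 189.7 and 182 CPM in the non-CD24+CD90+ samples and 96.4, 80.7 and 44.6 CPM in the TIC samples, a mean of 163 ± 39.7 against 73.9 ± 26.5 CPM (2.21-fold lower). Foxc1, a forkhead transcription factor, was at 111, 119 and 157 CPM in the non-CD24+CD90+ samples and 77.03, 55.8 and 50.2 CPM in the TIC samples, a mean of 129 ± 24.8 against 60.99 ± 14.2 CPM (2.11-fold lower). Prpf31, a splicing factor of the U4/U6 particle, was at 112, 121 and 147 CPM in the non-CD24+CD90+ samples and 68.6, 63.4 and 26.4 CPM in the TIC samples, a mean of 127 ± 18.4 against 52.8 ± 23.02 CPM (2.4-fold lower). In all 3 genes TIC replicate 3 was lowest. Ube3c, a ubiquitin ligase, was at 84.3, 149 and 136 CPM in the non-CD24+CD90+ samples and 65.3, 49.5 and 46.1 CPM in the TIC samples, a mean of 123 ± 34.2 against 53.6 ± 10.2 CPM (2.29-fold lower). Epb41l4b, a FERM-domain protein, was at 106, 124 and 127 CPM in the non-CD24+CD90+ samples and 36.4, 68.1 and 53.7 CPM in the TIC samples, a mean of 119 ± 11.3 against 52.7 ± 15.9 CPM (2.26-fold lower). The histone H4 gene Hist1h4i was at 157, 107 and 102 CPM in the non-CD24+CD90+ samples and 81.2, 48.3 and 41.2 CPM in the TIC samples, a mean of 122 ± 30.2 against 56.9 ± 21.4 CPM (2.15-fold lower). The counts of Hist1h4i, of the tubulin gene Tuba1c and of the chaperonin gene Hspe1 are uncertain, because near-identical copies of these genes exist and the authors removed reads that did not map uniquely.

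The 15 genes with the lowest ratios had means of at most 112 CPM in non-CD24+CD90+ tumor cells. Ap4b1, a subunit of the AP-4 adaptor, was at 35.6, 51.8 and 119 CPM in the non-CD24+CD90+ samples and 27.6, 9.61 and 3.20 CPM in the TIC samples, a mean of 68.97 ± 44.5 against 13.5 ± 12.6 CPM (5.12-fold lower). It had the lowest ratio of the 100 genes, and yet its SD was wide in both groups and its highest TIC sample reached 0.774 of the lowest other sample. Lrrc40, a leucine-rich repeat protein, was at 75.4, 40.8 and 35.8 CPM in the non-CD24+CD90+ samples and 16.5, 13.5 and 6.16 CPM in the TIC samples, a mean of 50.7 ± 21.5 against 12.1 ± 5.32 CPM (4.2-fold lower). Garem1, an adaptor of receptor signaling to ERK, was at 52.1, 70.8 and 38.9 CPM in the non-CD24+CD90+ samples and 6.37, 25.5 and 8.75 CPM in the TIC samples, a mean of 53.9 ± 16 against 13.5 ± 10.4 CPM (3.99-fold lower). Without TIC replicate 2 the log2 ratio of Garem1 was -2.83 in place of -1.99. Tmem135, a membrane protein of peroxisomes and mitochondria, was at 39.2, 70.9 and 40.7 CPM in the non-CD24+CD90+ samples and 15.2, 27.2 and 3.45 CPM in the TIC samples, a mean of 50.3 ± 17.9 against 15.3 ± 11.9 CPM (3.29-fold lower). Smagp, a small adhesion glycoprotein, was at 50.2, 55.4 and 91.3 CPM in the non-CD24+CD90+ samples and 25.8, 12.96 and 22.4 CPM in the TIC samples, a mean of 65.6 ± 22.4 against 20.4 ± 6.66 CPM (3.22-fold lower).

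Paxx, a factor of DNA end joining, was at 84.4, 39.4 and 82.6 CPM in the non-CD24+CD90+ samples and 31.3, 17.01 and 16.1 CPM in the TIC samples, a mean of 68.8 ± 25.5 against 21.5 ± 8.52 CPM (3.2-fold lower). Pomgnt2, an enzyme of dystroglycan glycosylation, was at 80.7, 33.8 and 42.2 CPM in the non-CD24+CD90+ samples and 20.3, 3.13 and 28.3 CPM in the TIC samples, a mean of 52.2 ± 24.99 against 17.3 ± 12.9 CPM (3.03-fold lower). Tmem47 was at 45.3, 75.7 and 49.1 CPM in the non-CD24+CD90+ samples and 28.6, 17.7 and 16.1 CPM in the TIC samples, a mean of 56.7 ± 16.6 against 20.8 ± 6.77 CPM (2.73-fold lower). Pomgnt2 and Paxx came close to the other group in 1 TIC sample each, at 0.837 and 0.795 of its lowest sample, whereas the highest TIC sample of Smagp lay at 0.514.

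The remaining 50 genes had ratios from 0.368 (Gnl3l) to 0.4996 (Plekha6), means in non-CD24+CD90+ tumor cells from 51.9 to 110 CPM and means in TICs from 22.3 to 50.3 CPM. They are grouped here by known roles, a grouping made after their values were seen. RNA processing and translation were represented by Ddx42 (98.8 ± 5.67 against 44.99 ± 14.5 CPM), Prpf38a (77.7 ± 25.5 against 33.5 ± 0.943 CPM), Larp7 (69.5 ± 14.2 against 30.8 ± 3.98 CPM), the cytoplasmic polyadenylation factor Cpeb4 (110.1 ± 19.7 against 50.3 ± 3.93 CPM), Rpp25l, Spats2 and Gnl3l. Genome maintenance was represented by the kinase Atm (97.7 ± 11.6 against 43.8 ± 26.5 CPM) and the telomere protein Terf2 (51.9 ± 25.6 against 22.3 ± 9.79 CPM). The scaffolds Dlg3 (108 ± 18.8 against 48.7 ± 28.2 CPM) and Dlg5 (88.8 ± 17.2 against 40.8 ± 8.31 CPM) belong to the Discs large family of the cell cortex. The membrane serine protease Prss8 (67.5 ± 3.03 against 27.5 ± 17.8 CPM) cleaves epithelial sodium channels. Secreted regulators were the Wnt antagonist Sfrp1 (100.5 ± 10.96 against 42.2 ± 15.3 CPM) and the placental growth factor Pgf (85.4 ± 42.2 against 41.7 ± 11.4 CPM). Protein modification and folding were represented by the SUMO-activating subunit Uba2 (61.8 ± 20.3 against 23.9 ± 3.56 CPM), the deubiquitinase Otub1, Hspa13, Hspe1, Creld2 and Tmub1. Metabolism was represented by the brain-type glycogen phosphorylase Pygb, the heparan sulfate enzymes B3gat3 and Extl1, Chchd5 and Nmral1. Signaling and stress genes were the mTORC1 inhibitor Ddit4 (58.8 ± 13.7 against 29.3 ± 14.1 CPM), the kinase Cdk16, Mapk1ip1l, Arhgef16, Sgsm2 and the transcription factor Mef2d. The nuclear pore protein Nup188, the centrosomal Cep89, the actin regulators Wipf2 and Fhdc1, the tubulin Tuba1c and the tubulin-tyrosine-ligase-like Ttll12 are parts or partners of cellular structures. Others were Odr4, Spag7, Plekhf2, Plekha6, Rundc1, Fam160a2, Fam110a, Timd2, Abtb1, Stac2, Ogfr and Klhdc10.

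Counting could mix some of these genes with a neighbor. Odr4 overlaps Tpr, Rpp25l overlaps Il11ra1 and Hspe1 overlaps Hspd1 on the opposite strand, and whether the counting used strand is not given in the sources used here. The partners were at 349 and 428 CPM (Tpr), 251 and 249.7 CPM (Il11ra1) and 183 and 217 CPM (Hspd1) in the means of non-CD24+CD90+ tumor cells and TICs. Prss8 overlaps Kat8 on the opposite strand, at 10.4 and 1.93 CPM in the same order. The annotated span of Fgfr2, 2960900 bases, overlaps many expressed genes on both strands. Among those on its own strand were Ctbp2 (171 and 124 CPM) and Cpxm2 (71.1 and 206 CPM). Whether exons overlap was not examined.

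By gene structure the 100 genes were close to the abundant genes. Their median GC content over exons was 51.6%, against 50.04% of all 3703, their median exonic length was 4296 against 5082 bases, and they had a median of 10 against 11 exon blocks. Over all abundant genes, the level relative to the mean of non-CD24+CD90+ tumor cells was set against these features. Its Spearman correlation with GC content was 0.066, -0.147 and -0.184 in TIC replicates 1 to 3. With exonic length it was -0.13, 0.095 and 0.168. The part of these features in the levels was not tested. The 100 genes lay on all autosomes and on X. The most were on chromosome 11 (12 of 353 abundant genes, 3.40%), chromosome 4 (11 of 245, 4.49%) and chromosome 7 (10 of 251, 3.98%), and 5 of 95 (5.26%) were on X. In 8 pairs, neighbors were less than 1000000 bases apart. A chain of 4 genes lay on chromosome 15 of GRCm38: Tuba1c (chr15:99029891-99038110), Spats2 (chr15:99125916-99213215), Gpd1 (chr15:99717515-99725005) and Smagp (chr15:100621339-100636940), with 0, 2 and 4 other abundant genes between successive members. No test of clustering was made.

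Markers of some other cell types, but not of all, moved with the groups. Of 12 fibroblast markers 10 were higher in every TIC sample, with a summed level of 3478 to 3898 CPM in non-CD24+CD90+ tumor cells and 8542 to 11382 CPM in TICs, and 7 were called higher, among them Col1a2 (log2 difference 2.01, SE 0.26, exactTest adjusted p = 2.37e-09). Pericyte markers summed to 650.2 to 881 against 1223 to 1593 CPM, and endothelial markers to 377 to 537 against 501 to 1941 CPM, the latter with overlapping ranges. Basal or myoepithelial markers overlapped as well, at 1039 to 1799 against 1078 to 1448 CPM. Leukocyte markers were low, at 88.2 to 160.1 against 103 to 245 CPM, and Adgre1, Cd3e, Cd4 and Ncr1 had no count in any sample. The highest of them was S100a8, at 70.9 to 123 against 72.6 to 147 CPM. Lyz2 alone among the 14 was higher in every TIC sample, at 9.44, 12.3 and 4.42 against 61.97, 74.8 and 26.1 CPM. It was called higher (log2 difference 2.68, SE 0.63, exactTest adjusted p = 0.0125). Erythroid markers were at 26.2 to 104.5 against 15.4 to 165 CPM, and Schwann or neural markers at 271 to 321 against 369.8 to 414 CPM. Of the 6 Schwann or neural markers, 3 were higher in every TIC sample and 1, S100b, was lower. None of the 100 genes was in any of the 9 marker lists. In bulk samples, fewer cells of a type and less RNA per cell cannot be told apart.

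Luminal epithelial markers moved in the same direction as the 100 genes but less far. The 14 markers summed to 7849 ± 144 CPM in non-CD24+CD90+ tumor cells and 5442 ± 396 CPM in TICs, a ratio of 0.693, and 6 of them were lower in every TIC sample. All 100 genes had a lower ratio than this sum. The rule itself required a ratio of at most 0.5, so the count of 100 is fixed by the choice. When each sample was instead scaled to its luminal marker sum, an alternative chosen after seeing the data, the median ratio of the 100 genes was 0.631 and that of the abundant genes 1.25. On that scale 39 of the 100 genes kept every TIC sample below every other sample, among 60 such abundant genes (1.62%). Lrrc40 (ratio 0.336), Garem1 (0.362), Mboat2 (0.369), Prom1 (0.406), Tmem135 (0.430), Smagp (0.449), Fgfr2 (0.4496) and Napa (0.491) still met the whole rule on that scale, and no other gene did. The part of the makeup of the sorted cells in the levels of the other genes was not tested.

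**Figure D5:**
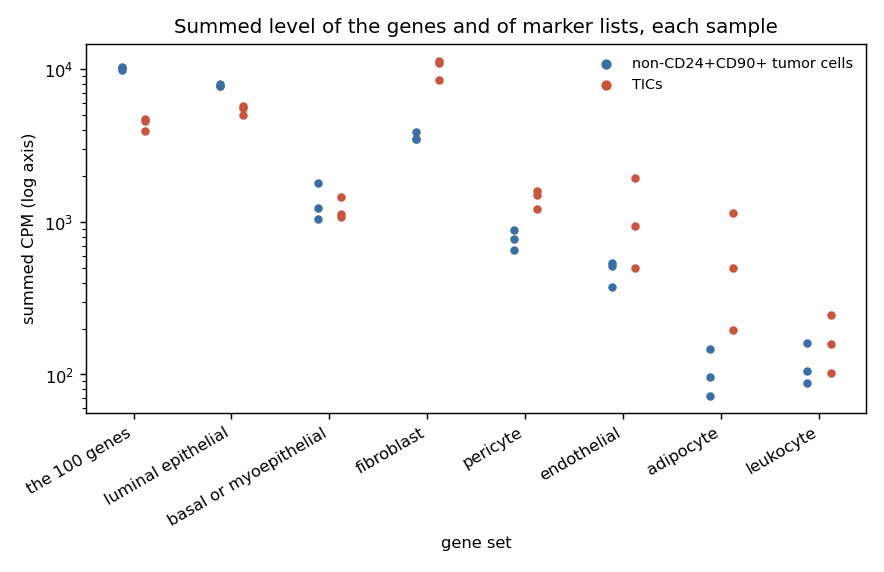
Summed CPM (y axis, log scale) of the 100 genes and of 7 marker lists (x axis) in each of 3 samples of non-CD24+CD90+ tumor cells (blue) and TICs (red). The sums of the 100 genes (9960 to 10369 against 3971 to 4746 CPM) and of the luminal markers (7748 to 8013 against 5004 to 5777 CPM) are lower in TICs, those of fibroblast, pericyte and adipocyte markers are higher, and those of the basal, endothelial and leukocyte markers overlap.

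Aside from the 100 genes, 11 genes were called lower in TICs, and they show where the rule stopped. Aqp5, a water channel of secretory epithelium, was at 1212 ± 56.4 against 609 ± 166 CPM and missed the rule by its ratio of 0.502 (log2 difference -0.94, SE 0.28, exactTest adjusted p = 0.0833). Eef1d, a translation elongation factor, had a ratio of 0.515 (adjusted p = 0.0765), and Rbm47, an epithelial RNA-binding protein, had a ratio of 0.516 (adjusted p = 0.0946). Cbr2, a carbonyl reductase, was at 41.3 ± 1.41 against 8.11 ± 4.78 CPM, under the required mean (adjusted p = 0.0942). Pank1, Gjb6, Slc29a4, Ndp, BC017158 and 9430002A10Rik were also under that mean. ENSMUSG00000029144 met the rule by its level but has no protein-coding entry in the annotation used here.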

How the data were processed

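The RNA-seq data were those of 3 TIC samples and of 3 pools of non-CD24+CD90+ tumor cells. According to the methods and the submitters' processing notes, the authors trimmed reads with Trimmomatic version 0.32, aligned them to GRCm38 with STAR version 2.4.0, removed reads that were not uniquely mapped (SAMtools version 1.1) and counted the rest per gene with HTSeq. The authors deposited raw counts for 41388 Ensembl genes without normalization. Their annotation release, the strand setting of the counting and the value of their CPM filter are not given in the sources used here.

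CPM was computed from total counts, since the rule asks for it. Symbols, biotypes, coordinates and lengths came from GENCODE M21 (GRCm38), which held 40254 of the genes. The 12192 genes above 1 CPM in 3 or more samples were compared with exactTest of edgeR version 4.0.16 (R version 4.3.3) after TMM normalization, with tagwise dispersions and Benjamini-Hochberg adjustment at 0.1. The smallest p-value of an exact permutation test of 1 gene is 0.1 with these group sizes. p-values measure the spread between these pools only. No replicate number in the labels pairs the samples. SDs are over 3 samples. Floors of 3 counts cover counting error only. The test was checked on simulated data with 200 genes changed 4-fold. There a larger share of the calls of exactTest (21.8%) and of DESeq2 (46.9%) was false than the nominal one. For the quasi-likelihood test this share was 8.82%. Alternatives were the quasi-likelihood test, DESeq2 version 1.42.0, other scalings, filters, thresholds and each sample left out.

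The 100 genes, the 28 function lists and the 9 marker lists were chosen with earlier results of these data known. Values in every sample are given for the 20 genes with the highest mean in non-CD24+CD90+ tumor cells, the 15 with the lowest ratio, and up to 4 with the highest mean from each function list with at least 2 of the genes. Dusp5, Bcl2 and Fgfr2 are among these. Genes outside the 100 are named as neighbors of a threshold, as called in a list (up to 3 by smallest p-value), or, where chosen after their values were seen, as abundant list genes whose groups did not overlap and as genes called lower that missed the rule. Promoters came from RefSeq (GRCm38.p6), matched by Ensembl identifier or else by symbol. For a gene with several starts, only the first listed was shown and counted. Some items are not reported here.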

Additional observations from a re-analysis of the deposited data

How the results depend on the processing

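The number of genes that met the rule, 100, was 78 and 71 under TMM and median-of-ratios scaling, with all of them among the 100, and 101 without the 50 most abundant genes (79 shared). It was 208 and 33 at a required mean of 25 and 100 CPM, 27 and 241 at a required ratio of 0.4 and 0.6, 114 with medians (79 shared), and 8 with CPM relative to luminal markers, an alternative chosen after seeing the data. It ranged from 120 (TIC replicate 3 left out) to 248 (TIC replicate 1 left out) when 1 sample was left out. Leaving out a sample both relaxes the separation and changes the means. Of the 100 genes, 69 (without TIC replicate 3) to 87 (without non-CD24+CD90+ replicate 1) were kept. The 23 genes called lower in TICs became 1 with the quasi-likelihood test, 75 with DESeq2, 4 with no filter and 7 at an adjusted p-value below 0.05, and ranged from 2 (leaving out non-CD24+CD90+ replicate 1 or 2) to 98 (without TIC replicate 1). Of the 100 genes, 12 were called, against 1 with the quasi-likelihood test, 17 with DESeq2, 3 with no filter, 6 at an adjusted p-value below 0.05, and from 1 (leaving out non-CD24+CD90+ replicate 1) to 25 (without TIC replicate 1) with 1 sample left out. The cause of these differences was not tested. Calls in either direction, summed over the function lists, numbered 31, against 2 with the quasi-likelihood test and 49 with DESeq2. Log2 ratios of single genes moved by 1 SD or more in 5 of 900 cases under other scalings or without 1 sample, to -2.75 (Polr3c), -1.96 (Prss8) and -1.91 (Nup188) without TIC replicate 1, -1.61 (Slc6a2) without TIC replicate 3 and -2.83 (Garem1) without TIC replicate 2. Their sign could not turn when 1 sample was left out, because the rule had separated the groups. Scaling moved the median log2 difference of all expressed genes from -0.06 with total counts to -0.01 with TMM. No paired analysis was possible because the labels number the samples in 1 series across both groups, and the replicate numbers used here only follow their order. Genes near 50 CPM rest on few counts in TICs, down to 22.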
